A study of Homo sapiens with 16 samples.

Results

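The genes described here are 55 listed genes of the DNA replication machinery and of the supply of deoxynucleotides, listed by name with no threshold on their values, by a list drawn up when earlier results of these data were known. They fall into 10 roles: the origin recognition complex, licensing factors, the MCM2-7 helicase, helicase activation, the polymerases and primase, the sliding clamp and its loader, single-strand binding and lagging-strand maturation, nucleotide supply, fork protection and chromatin assembly. All 55 were found among the 31456 gene symbols of the deposited table, through 452 transcripts, and all 55 were among the 19818 genes that passed the filter on low counts. The RNA came from HCT116, an established human colon cancer cell line, in 16 strand-specific polyA RNA libraries. The 6 groups were wild type and NORAD knockdown at 24 h, 48 h and 96 h, with 2 libraries per group at 24 h and 3 per group at 48 h and 96 h. NORAD is a long noncoding RNA. It was depleted by CRISPR interference, which blocks transcription with a Cas9 that cannot cut DNA, under the control of doxycycline. The labels do not say whether the wild-type cells also received doxycycline, whether the knockdown cells were a single clone, or whether replicates were separate cultures, and the p-values therefore rest on library-to-library spread that may be only technical.

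DNA replication starts when the origin recognition complex, CDC6 and CDT1 load the MCM2-7 ring onto DNA in G1 phase. In S phase the kinase CDC7 with its subunit DBF4, together with CDC45, the GINS complex and MCM10, turns that ring into an active helicase, and DNA polymerases alpha, delta and epsilon copy the strands behind it with the clamp PCNA. Many of these genes are known targets of the E2F transcription factors and are transcribed around the G1 to S transition, so their RNA is widely read as a marker of proliferating cultures such as colon cancer cell lines.

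NORAD was measured first, as the target of the knockdown (chr20:36045622-36050960, minus strand, GENCODE 29 on GRCh38). On the CPM scale (counts divided by TMM-scaled library size in units of 1e6 counts), it stood at 24 h at 179 and 201 CPM in wild type and 229.8 and 188 CPM in the libraries labelled knockdown, so the target was not lower there. At 48 h it was 156, 155 and 162 CPM in wild type against 21.8, 18.1 and 24.8 CPM in knockdown, and at 96 h 181, 184 and 183 against 79.9, 72.6 and 66.1 CPM. NORAD RNA was thus at 13.6% of the wild-type level at 48 h and 39.9% at 96 h. All directions given for 24 h are between the libraries so labelled, whose NORAD level did not differ in the labelled direction.

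Library totals lay between 28391784 and 51853876 estimated counts. In a principal component analysis knockdown replicate 3 at 48 h stood apart from the other two on component 3 (7.85 against -54.17 and -61.14), and the counts and medians of 48 h are given with and without it. Of 7 colon epithelial markers 6 averaged above 1 CPM in every group (VIL1 was near 0). Their summed level ran over 7256 to 7706 CPM in wild type and 6061 to 6633 CPM in the libraries labelled knockdown at 24 h, 6554 to 6854 against 4055 to 4893 CPM at 48 h, and 4542 to 4991 against 5362 to 5649 CPM at 96 h. Of 7 markers of blood, fibroblast and endothelial cells only CD68 and COL1A1 averaged above 1 CPM in every group, VWF did so in 1 group, and PTPRC, CD3E, COL1A2 and DCN were below 1 CPM in every library. Their summed level ran over 105 to 123 against 114 to 120 CPM at 24 h, 43.5 to 46.4 against 75.1 to 92.3 CPM at 48 h, and 54.3 to 64.2 against 69.4 to 77.0 CPM at 96 h. At 24 h retained-intron transcripts held 4.93% and 5.17% of counts in wild type and 5.58% and 6.04% in the libraries labelled knockdown, and mitochondrially encoded RNA held 4.89% and 5.05% against 6.08% and 6.10%. At 48 h retained-intron transcripts held 4.05% to 4.26% in wild type and 5.73%, 5.29% and 4.18% in knockdown, and mitochondrially encoded RNA held 10.4% to 11.1% against 12.3% to 13.8% without overlap. At 96 h both overlapped between the groups, at 4.46% to 4.62% against 4.50% to 4.87% for retained-intron transcripts and 15.5% to 16.6% against 14.8% to 17.4% for mitochondrially encoded RNA. The part of these differences in the results below was not tested.

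Replication gene RNA was lower in knockdown than in wild type at 48 h and 96 h. It was also lower in the libraries labelled knockdown at 24 h, where NORAD itself was not lower. Members of every role were among the genes that fell. By edgeR's quasi-likelihood test with Benjamini-Hochberg adjustment over all genes, 45 of 55 members were lower at 24 h, 40 at 48 h and 48 at 96 h. Over all genes tested, 12.4% were lower at 24 h, 18.5% at 48 h and 5.15% at 96 h. No member was higher at any time (0 of 55 by edgeR, also at an unadjusted p under 0.05, and 0 of 55 by DESeq2), while 5.16%, 14.8% and 5.36% of all genes were higher by edgeR. The median log2 fold change of the members was -0.45 at 24 h, -0.34 at 48 h and -0.49 at 96 h, while the median of all genes tested was -0.02, 0.06 and -0.01. The differences were modest for each gene. In this fit of all 16 libraries no member fell by more than 0.76 on the log2 scale, the value of the primase subunit gene PRIM1 at 96 h. In bulk RNA, fewer cells in S phase and less of these RNAs per cell cannot be told apart. Whether the differences come from NORAD or from other differences between the cells was not tested.

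Altogether 35 members were lower at all 3 times, among them all of MCM2 to MCM7, the 3 licensing genes, PCNA and TYMS. Another 7 were lower at 24 h and 96 h but did not pass at 48 h (GINS4, POLA1, POLA2, RFC1, TK1, CLSPN and TIMELESS), and 3 passed at no time (ORC4, ORC6 and PRIM2). None of these counts was taken over all genes. At most 5.15% of all genes, those lower at 96 h, can be lower at all 3 times. The count of 35 also rests on the calls at 24 h, of which 13 of 45 held under all 3 other scalings. Every knockdown library was below every wild-type library of its time for 53 members at 24 h, 42 at 48 h and 52 at 96 h. Over all genes tested that held for 32.9%, 20.3% and 15.6%. As a share of all TPM (counts per transcript length, scaled to 1 total in every library), the members together took 0.328% and 0.358% in wild type at 24 h against 0.290% and 0.310% in the libraries labelled knockdown. At 48 h the shares were 0.345%, 0.368% and 0.336% in wild type against 0.287%, 0.258% and 0.326% in knockdown, and at 96 h 0.229%, 0.233% and 0.213% against 0.156%, 0.159% and 0.154%. The groups did not overlap at any time, and knockdown replicate 3 at 48 h was the closest of the knockdown libraries at that time to wild type.

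Without knockdown replicate 3 of 48 h, 46 members were lower at 48 h and 1 was higher, with a median log2 fold change of -0.41. Calls rose for all genes too, with 23.9% of all genes lower and 20.8% higher. Of the 40 calls made with all libraries 39 were lower without it as well, and that of POLD3 ended (log2 -0.23, edgeR adjusted p = 0.0589). The 7 others that came to be lower were GINS3, GINS4, CDC7, POLA1, RFC1, TK1 and TIMELESS, and the 1 that was higher was CLSPN (log2 0.20, adjusted p = 0.0412). By role, 4 of 6 origin recognition complex genes, 3 of 3 licensing genes, 6 of 6 MCM2-7 genes, 8 of 8 helicase activation genes, 6 of 10 polymerase and primase genes, 6 of 6 clamp genes, 5 of 6 single-strand binding and lagging-strand genes, 4 of 4 nucleotide supply genes, 2 of 4 fork protection genes and 2 of 2 chromatin assembly genes were lower. Both other knockdown libraries were below every wild-type library of 48 h for 49 members and for 29.9% of all genes.

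**Figure D1:**
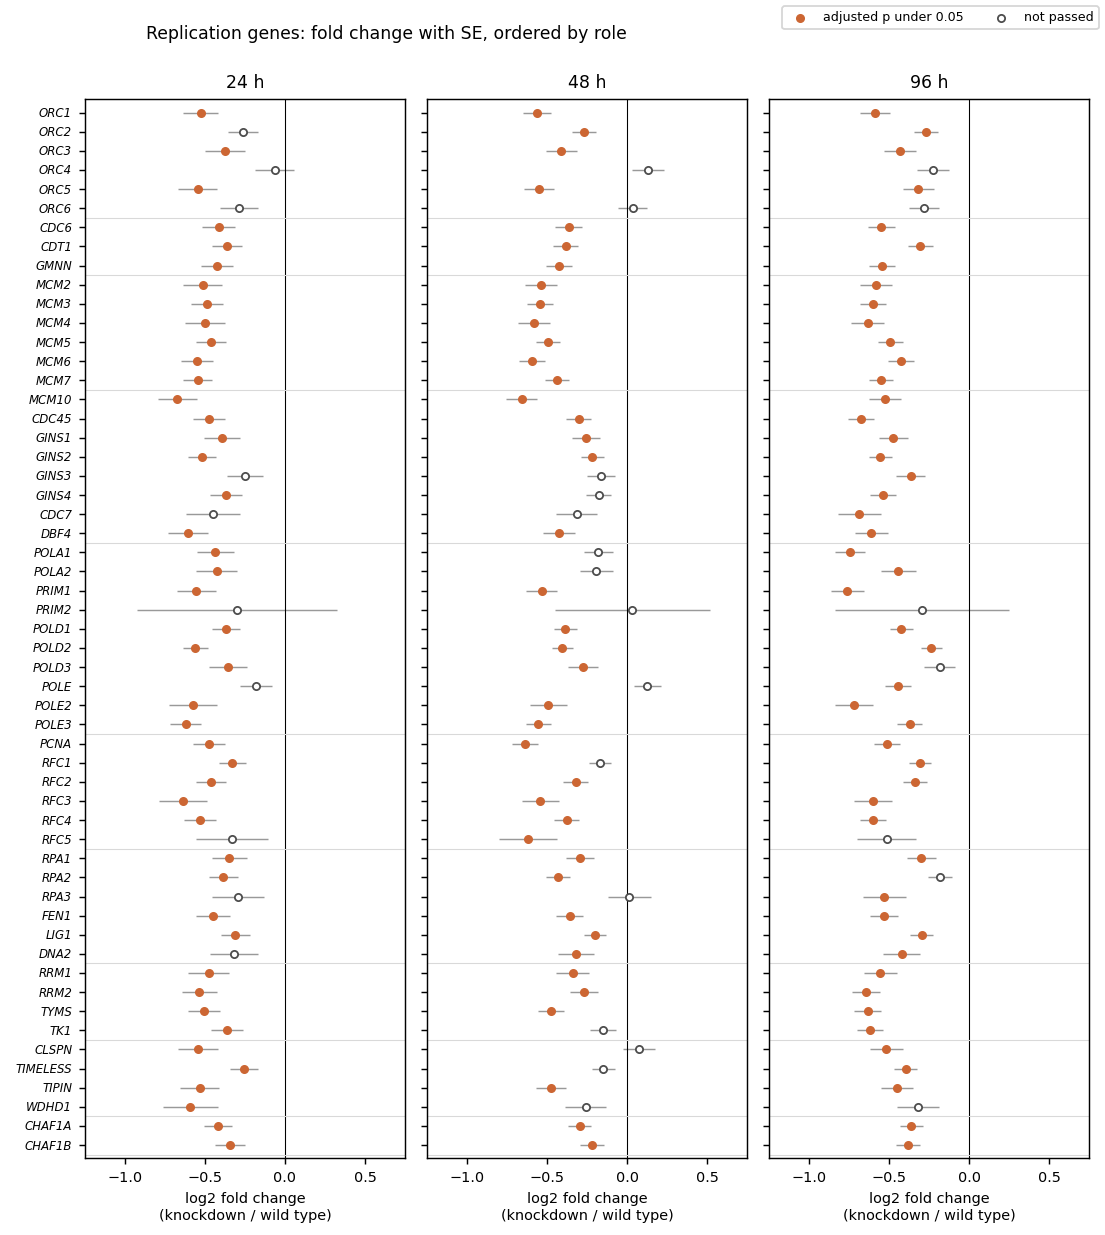
Log2 fold change of knockdown over wild type (x axis) with its SE for each of the 55 genes, ordered by role from the origin recognition complex (top) to chromatin assembly (bottom), at 24 h, 48 h and 96 h. Filled points passed the edgeR test at an adjusted p under 0.05 (45, 40 and 48 genes, all left of 0) and open points did not.

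The members' promoters were searched for words known to be bound by E2F factors. RefSeq promoters of GRCh38.p14 were matched by symbol for 48 of the 55 genes (63 promoters), and the 250 bases before each start were read for TTTCCCGC, TTTGGCGC, TTTCGCGC and TTTGCCGC on both strands, where some words can overlap each other. At least 1 word was found in 16 of the 63 member promoters (25.4%), in 16 genes, and in 2.79% of all 35116 promoters. CCAAT, the word of the factor NF-Y, was found on either strand in 33 of the 63 (52.4%) and in 32.0% of all. A match is a description of the sequence and not a measured binding site. The search of all promoters was not limited to genes tested. Many of the listed genes are known E2F targets, so a higher share of these words could be foreseen from the list. The windows below are shown for genes with several words in 1 window (MCM6, CDC7 and TIPIN). Also shown are PCNA and TYMS (lower at 48 h) and POLE and POLA1 (not passed at 48 h), whose library values are given further on. Each is 5′ to 3′ on the gene's strand, with the words in capitals.
MCM6 promoter, chr2:135876522-135876595, minus strand: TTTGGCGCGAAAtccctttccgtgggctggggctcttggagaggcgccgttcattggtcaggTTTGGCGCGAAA
CDC7 promoter, chr1:91501035-91501094, plus strand: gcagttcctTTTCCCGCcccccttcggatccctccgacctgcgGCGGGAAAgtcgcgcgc
TIPIN promoter, chr15:66356716-66356775, minus strand: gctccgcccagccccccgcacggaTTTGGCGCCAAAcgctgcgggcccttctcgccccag
PCNA promoter, chr20:5126648-5126707, minus strand: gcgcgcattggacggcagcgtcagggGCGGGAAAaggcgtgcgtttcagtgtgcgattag
TYMS promoter, chr18:657588-657647, plus strand: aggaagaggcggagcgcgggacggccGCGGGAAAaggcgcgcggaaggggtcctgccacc
POLE promoter, chr12:132687343-132687402, minus strand: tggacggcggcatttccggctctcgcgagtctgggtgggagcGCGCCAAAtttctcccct
POLA1 promoter, chrX:24693755-24693814, plus strand: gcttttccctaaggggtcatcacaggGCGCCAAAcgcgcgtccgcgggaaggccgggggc

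MCM7 also has 2 words, too far apart for 1 window, and is not shown. The MCM6 window holds 4 overlapping matches in 2 runs, and TIPIN has 2 overlapping matches in 1 run. The word GCGGGAAA, the reverse complement of the first word searched, stands in PCNA and TYMS, and GCGCCAAA stands in POLE and POLA1. Genes with the same word, read on either strand, differed in their calls at 48 h. TTTGGCGC, the reverse complement of GCGCCAAA, stands in MCM6 and TIPIN, which were lower at all 3 times. GCGGGAAA also stands in CDC7, which did not pass at 48 h. Without knockdown replicate 3 of 48 h, CDC7 and POLA1 were lower at 48 h as well, and POLE was not. The median log2 fold changes of the 16 genes with a word were -0.46, -0.42 and -0.53 at the 3 times, beside -0.45, -0.31 and -0.45 for the 32 matched genes without one, a difference that was not tested. In the same order, 14 of 16 against 26 of 32 were lower at 24 h, 12 against 23 at 48 h and 16 against 27 at 96 h. Without knockdown replicate 3 of 48 h the medians at 48 h were -0.48 and -0.40, and 14 of 16 against 27 of 32 were lower.

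NORAD is known to bind Pumilio proteins, which recognise UGUANAUA in 3′ UTRs and repress the RNAs that carry it. In the 3′ UTR of the leading protein-coding transcript (GENCODE 29), this motif was found in 14 of 53 members with such a UTR (26.4%) and in 23.6% of 14275 genes tested, a difference that was not tested. The median 3′ UTR was 740 bases long for the members and 877 bases for the genes tested. PCNA, GINS2 and RFC4 are shown as members with a motif that fell at all 3 times, with the motif in capitals in RNA letters, 5′ to 3′ on the gene's strand.
PCNA, chr20:5115154-5115183, minus strand: cuaaguacauaUGUAGAUAuuguuuucugu
PCNA, chr20:5115138-5115167, minus strand: auauuguuuucUGUAAAUAaccuauuuuuu
GINS2, chr16:85677844-85677873, minus strand: ugacugguaggUGUAGAUAcagcaggagug
RFC4, chr3:186789924-186789953, minus strand: augggggguuuUGUAAAUAaugaaguugua

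Members with the motif had median log2 fold changes of -0.49, -0.35 and -0.55 at 24 h, 48 h and 96 h, and the 39 without it -0.42, -0.34 and -0.48. Of the 14 with it, 12, 10 and 13 were lower, and of the 39 without it 32, 29 and 34. Without knockdown replicate 3 of 48 h the medians at 48 h were -0.38 and -0.44, with 13 of 14 and 32 of 39 lower. The difference between members with and without the motif was not tested.

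The origin recognition complex marks the sites where replication can start. Its members were lower in 3 of 6 cases at 24 h, 4 at 48 h and 4 at 96 h. ORC1, the subunit whose protein is known to rise and fall with the cell cycle (chr1:52372829-52404459, minus strand), had 37.3 and 38.7 CPM in wild type and 25.9 and 27.0 CPM in the libraries labelled knockdown at 24 h. It had 55.3, 54.6 and 50.3 against 32.8, 32.9 and 42.8 CPM at 48 h and 23.1, 24.5 and 23.7 against 16.1, 15.5 and 15.8 CPM at 96 h. The groups were apart at every time, and the log2 fold changes were -0.53 ± 0.11 (SE), -0.56 ± 0.09 and -0.59 ± 0.09 (edgeR adjusted p = 0.00192, 5.01e-05 and 0.000154).

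ORC5 fell at each time too, by 0.55, 0.55 and 0.32 on the log2 scale, and ORC3 by 0.37, 0.41 and 0.43. ORC2 passed at 48 h and 96 h at -0.27 each. ORC4 and ORC6 passed at no time. ORC6 had 59.7, 58.7 and 63.5 CPM in wild type and 64.1, 71.8 and 50.4 CPM in knockdown at 48 h, with overlapping groups. At 24 h it had 38.8 and 39.8 against 31.9 and 32.5 CPM and at 96 h 29.5, 27.96 and 28.5 against 23.7, 24.2 and 22.6 CPM, each without overlap and each short of the threshold (edgeR adjusted p = 0.0983 and 0.0598). ORC6 at 96 h passed when knockdown replicate 2 or 3 of 48 h was left out of the fit (adjusted p = 0.0195 and 0.00355). ORC4 lay at log2 -0.06, 0.13 and -0.23, and its sign at 24 h turned under 3 other scalings (by total count, by upper quartile and by abundance).

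The licensing factors fell in 3 of 3 cases at every time. CDC6, which brings the MCM ring to the origin recognition complex, had 80.7 and 92.2 CPM in wild type and 61.1 and 68.7 CPM in the libraries labelled knockdown at 24 h, 134, 127 and 133 against 97.6, 93.5 and 115 CPM at 48 h, and 55.7, 63.3 and 58.5 against 42.0, 40.7 and 38.6 CPM at 96 h. Its log2 fold changes were -0.41 ± 0.10, -0.37 ± 0.08 and -0.55 ± 0.08 (SE), and the groups never overlapped. GMNN encodes geminin, the inhibitor of CDT1 that blocks relicensing. It had 42.8 and 45.8 against 30.8 and 35.2 CPM at 24 h, 72.5, 67.4 and 72.8 against 47.8, 56.3 and 54.3 CPM at 48 h and 38.6, 40.5 and 35.7 against 26.5, 27.1 and 25.1 CPM at 96 h. GMNN thus fell by 0.42, 0.43 and 0.54 on the log2 scale (edgeR adjusted p = 0.0047, 0.000323 and 0.000108), beside falls of 0.36, 0.38 and 0.31 for CDT1, so the loader and its inhibitor were lower together.

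The MCM2-7 genes encode the 6 subunits of the ring that unwinds DNA, and all 6 fell at all 3 times, within a narrow range of -0.63 to -0.43. The role's median log2 fold change was -0.51 at 24 h, -0.54 at 48 h and -0.57 at 96 h. MCM7 (chr7:100092728-100101940, minus strand) had 408 and 407 CPM in wild type and 267 and 292 CPM in the libraries labelled knockdown at 24 h. It had 621, 604 and 568 against 408, 425 and 490.0 CPM at 48 h, and 359.5, 359 and 358 against 241, 256 and 237 CPM at 96 h. The knockdown libraries were below all wild-type libraries of their time (log2 -0.54 ± 0.09, -0.44 ± 0.07 and -0.55 ± 0.07, SE, with edgeR adjusted p = 0.000293, 0.000114 and 3.28e-05). MCM6 (chr2:135839626-135876426, minus strand) had 129 and 139.6 against 90.9 and 92.5 CPM at 24 h, 145, 141 and 147 against 90.3, 89.4 and 107 CPM at 48 h and 107, 116 and 107 against 89.0, 83.1 and 73.4 CPM at 96 h. Its fall at 48 h, by 0.60 on the log2 scale, had the lowest p of the role at that time (edgeR adjusted p = 9.96e-06). Retained-intron transcripts held 52.6% ± 3.8 (SD, n = 3) of MCM7 counts in wild type and 61.8% ± 8.7 in knockdown at 48 h, and on the protein-coding transcripts alone MCM7 fell by 0.60, 0.66 and 0.61 on the log2 scale at the 3 times (edgeR adjusted p = 0.0238, 0.00228 and 0.00802). The test of a difference between times did not pass for any of the 6 genes, with adjusted p from 0.564 (MCM6) to 0.982 (MCM5).

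Helicase activation genes fell in 6 of 8 cases at 24 h, 5 at 48 h and all 8 at 96 h. MCM10, which joins the helicase when it starts to unwind, had 39.7 and 45.9 CPM against 26.7 and 27.0 CPM at 24 h, 72.9, 72.1 and 72.0 against 43.8, 40.1 and 53.7 CPM at 48 h and 26.4, 29.1 and 29.3 against 20.6, 21.1 and 17.3 CPM at 96 h. MCM10 had the lowest fold change of any member at 24 h and at 48 h, -0.67 ± 0.12 and -0.66 ± 0.10 (SE, edgeR adjusted p = 0.00061 and 2.75e-05). CDC45, a subunit of the active helicase (chr22:19479459-19520612, plus strand), had 37.6 and 41.0 against 26.0 and 30.6 CPM at 24 h, 73.3, 73.7 and 69.4 against 54.0, 60.1 and 61.4 CPM at 48 h and 28.02, 30.1 and 29.9 against 18.0, 19.3 and 17.7 CPM at 96 h. Its groups never overlapped, and its fall was 0.47 at 24 h, 0.30 at 48 h and 0.68 at 96 h on the log2 scale (edgeR adjusted p = 0.00182, 0.00478 and 8.63e-06).

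GINS2, a subunit of the GINS complex that binds CDC45 and the MCM ring, had 73.5 and 70.6 CPM against 46.6 and 53.8 CPM at 24 h, 118, 121 and 118 against 96.6, 104 and 107 CPM at 48 h and 51.8, 47.4 and 48.0 against 31.9, 34.6 and 33.7 CPM at 96 h. The groups were apart at each time, with a log2 fold change of -0.52 at 24 h, -0.22 at 48 h and -0.55 at 96 h. The call at 48 h (edgeR adjusted p = 0.0215) ended under the 3 other scalings (0.24 to 0.486). The test of a difference between times gave adjusted p = 0.0584 for GINS2. At 48 h GINS3 and GINS4 did not pass, at -0.16 and -0.18. CDC7 passed only at 96 h (-0.69), with -0.45 and -0.32 earlier. Its activating subunit DBF4 fell by 0.60, 0.42 and 0.61 on the log2 scale. Transcripts annotated as targets of nonsense-mediated decay held 82.6% of DBF4 counts in wild type at 24 h, and protein-coding ones 3.64%. On the protein-coding transcripts alone DBF4 lay at log2 0.09 at 24 h, 0.58 at 48 h and -0.75 at 96 h, none of which passed (edgeR adjusted p = 0.952, 0.407 and 0.449).

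The polymerase and primase genes fell in 8 of 10 cases at 24 h, 6 at 48 h and 8 at 96 h. POLD2, a subunit of lagging-strand polymerase delta, had 219 and 207 CPM against 139.8 and 149 CPM at 24 h, 231, 236 and 225 against 162, 183 and 177 CPM at 48 h and 156, 154 and 152 against 125, 134 and 132 CPM at 96 h. The groups never overlapped, at log2 -0.56 ± 0.08, -0.41 ± 0.07 and -0.24 ± 0.07 (SE, edgeR adjusted p = 7.91e-05, 7.80e-05 and 0.0213), and the test of a difference between times did not pass (adjusted p = 0.113). The POLD2 call at 96 h ended when any one of 5 of the 6 libraries of that time was left out (adjusted p 0.0526 to 0.0914). POLE3, a histone-fold subunit of polymerase epsilon, had 77.8 and 83.1 against 48.6 and 55.9 CPM at 24 h, 169.9, 162 and 177 against 103, 123 and 121 CPM at 48 h and 73.8, 74.1 and 74.4 against 55.7, 60.9 and 55.1 CPM at 96 h. Here too the groups stayed apart, at log2 -0.62, -0.55 and -0.37 (edgeR adjusted p = 0.000166, 1.50e-05 and 0.00288).

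Among the other polymerase genes, the primase catalytic subunit PRIM1 fell by 0.55, 0.53 and 0.76 on the log2 scale and POLE2 by 0.58, 0.49 and 0.72. A transcript annotated as a target of nonsense-mediated decay held 58.4% to 66.9% of PRIM1 counts in the group means. On the protein-coding transcripts alone PRIM1 lay at log2 -0.61, -0.27 and -0.75, and of these the value at 96 h passed (edgeR adjusted p = 0.12, 0.335 and 0.034). POLD1, the catalytic subunit of polymerase delta, fell by 0.37, 0.39 and 0.42. POLD3 passed at 24 h and 48 h and lay at -0.19 at 96 h. PRIM2 could not be assessed, with levels under 1 CPM in all 16 libraries and an SE of 0.49 to 0.62.

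The clamp and clamp loader genes fell in 5 of 6 cases at each time. PCNA encodes the ring that tethers polymerases to DNA (chr20:5114953-5126626, minus strand). It had 255 and 284 CPM against 186 and 202 CPM at 24 h, 478, 458 and 448 against 263, 290.1 and 337 CPM at 48 h and 247, 264 and 247 against 174, 185 and 172 CPM at 96 h. PCNA had the lowest p of all members at 48 h, where knockdown stood at 64.3% of wild type (log2 -0.64 ± 0.08, SE, edgeR adjusted p = 5.13e-06), beside -0.47 at 24 h and -0.51 at 96 h. RFC4, a subunit of the loader that opens the PCNA ring, had 41.9 and 45.0 against 28.5 and 31.6 CPM at 24 h, 72.2, 70.4 and 70.3 against 51.4, 56.6 and 55.9 CPM at 48 h and 41.4, 48.5 and 46.9 against 30.8, 31.9 and 27.4 CPM at 96 h. It fell by 0.53, 0.38 and 0.60 on the log2 scale without overlap. RFC5, another loader subunit, passed only at 48 h (log2 -0.62 ± 0.18, SE) and its groups overlapped there.

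Single-strand binding and lagging-strand genes fell in 4 of 6 cases at 24 h and 5 at 48 h and 96 h. RPA2, the middle subunit of the single-strand binding protein RPA, had 61.5 and 60.1 CPM against 46.0 and 47.1 CPM at 24 h and 101, 98.3 and 97.0 against 68.2, 71.0 and 80.3 CPM at 48 h, falls of 0.38 and 0.43 on the log2 scale (edgeR adjusted p = 0.00539 and 0.000135). At 96 h it had 52.01, 56.9 and 50.6 against 47.7, 49.2 and 43.7 CPM and did not pass (adjusted p = 0.14). FEN1, the nuclease that trims Okazaki fragment flaps, had 117 and 126 against 87.4 and 90.7 CPM at 24 h, 222, 216 and 195 against 149.5, 154 and 190.0 CPM at 48 h and 82.5, 81.1 and 89.6 against 58.1, 63.0 and 53.9 CPM at 96 h, and its groups were apart each time (log2 -0.45, -0.36 and -0.53). RPA3, the smallest RPA subunit, had 38.5 and 43.7 against 33.0 and 34.1 CPM at 24 h, 30.7, 27.4 and 33.5 against 28.5, 35.7 and 28.2 CPM at 48 h with overlap, and 24.5, 35.5 and 24.7 against 20.8, 20.4 and 17.5 CPM at 96 h. RPA3 passed only at 96 h (log2 -0.53 ± 0.14, SE, edgeR adjusted p = 0.0159), and that call ended without wild-type replicate 2 (adjusted p = 0.0965) or knockdown replicate 3 (adjusted p = 0.0904) of 96 h. The ligase gene LIG1 fell by 0.31, 0.20 and 0.30 on the log2 scale.

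The nucleotide supply genes fell in 4 of 4 cases at 24 h, 3 at 48 h and 4 at 96 h. TYMS encodes thymidylate synthase, which makes the thymidine nucleotide (chr18:657604-673578, plus strand). It had 223 and 239 CPM against 163 and 163 CPM at 24 h, 329.7, 326 and 318 against 212, 218 and 271 CPM at 48 h and 185, 197 and 176 against 121, 125 and 114 CPM at 96 h. TYMS fell by 0.51, 0.47 and 0.64 on the log2 scale (edgeR adjusted p = 0.0013, 0.000145 and 2.18e-05), always without overlap. The ribonucleotide reductase genes RRM1 and RRM2 fell too: RRM1 by 0.48, 0.34 and 0.55 and RRM2 by 0.53, 0.27 and 0.65 on the log2 scale at the 3 times.

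The chromatin assembly genes CHAF1A and CHAF1B, which encode the large and middle subunits of the histone chaperone CAF-1, fell at all 3 times. CHAF1A had 66.9 and 69.2 CPM against 49.6 and 52.1 CPM at 24 h, 115, 111 and 104 against 89.6, 88.6 and 90.3 CPM at 48 h and 48.4, 43.8 and 52.4 against 36.4, 39.2 and 36.9 CPM at 96 h (log2 -0.42, -0.30 and -0.36, without overlap). CHAF1B had 43.5 and 40.6 against 32.9 and 33.3 CPM at 24 h, 55.5, 57.1 and 57.7 against 45.9, 46.0 and 54.6 CPM at 48 h and 32.8, 33.0 and 34.0 against 24.2, 26.1 and 26.1 CPM at 96 h. At 48 h the CHAF1B groups came within 1 CPM of each other, and the fall of 0.22 on the log2 scale (edgeR adjusted p = 0.0301) did not pass without any one of the wild-type libraries or knockdown replicates 1 and 2 of that time (adjusted p 0.0551 to 0.121).

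Fork protection genes guard stalled forks. They fell in 4 of 4 cases at 24 h, 1 at 48 h and 3 at 96 h. TIPIN had 21.5 and 24.4 CPM against 16.2 and 15.5 CPM at 24 h, 32.2, 31.0 and 33.5 against 20.4, 24.3 and 24.8 CPM at 48 h and 18.1, 19.9 and 15.9 against 13.7, 13.8 and 11.97 CPM at 96 h. It was the member of the role that passed at 48 h (log2 -0.48 ± 0.10, SE, edgeR adjusted p = 0.000652). TIMELESS, whose protein pairs with that of TIPIN, had 73.3 and 73.2 against 60.1 and 62.7 CPM at 24 h, 108, 106 and 101 against 89.9, 89.6 and 105 CPM at 48 h and 85.6, 82.2 and 91.2 against 66.4, 65.8 and 64.3 CPM at 96 h. Its call at 24 h sat at the threshold (edgeR adjusted p = 0.0497) and ended in most other settings, while at 96 h it fell by 0.40 on the log2 scale (adjusted p = 0.000637).

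For 4 members the knockdown effect differed between the 3 times by edgeR's F test: POLE, CLSPN, POLA1 and TK1. Over all genes tested that share was 9.46%, so the 4 of 55 are not above the background. With knockdown replicate 3 of 48 h left out it was 8 of 55 (also ORC6, GINS2, POLD2 and RPA2) and 25.5% of all genes. In each of the 4 the effect at 48 h was nearest to 0 or above it. CLSPN, the gene of the checkpoint adaptor claspin (chr1:35720218-35769967, minus strand), had 55.8 and 55.6 CPM in wild type and 36.0 and 40.4 CPM in the libraries labelled knockdown at 24 h. It had 95.6, 93.5 and 107 against 105, 122 and 84.8 CPM at 48 h and 29.7, 30.2 and 32.8 against 22.1, 22.2 and 20.4 CPM at 96 h. The 48 h groups overlapped and the others did not (log2 -0.54 ± 0.12, 0.07 ± 0.10 and -0.52 ± 0.10, SE, adjusted p of the difference = 0.0112).

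POLE, the catalytic subunit of leading-strand polymerase epsilon (chr12:132623753-132687365, minus strand), had 149 and 154 CPM against 124 and 143 CPM at 24 h, 182, 196 and 168 against 224, 186 and 186 CPM at 48 h and 125, 114 and 127 against 86.6, 92.9 and 89.5 CPM at 96 h. It passed only at 96 h, by -0.44 ± 0.08 (SE, edgeR adjusted p = 0.00103, difference between times 0.00962). Scaled by total count, by upper quartile or by abundance, POLE passed as higher at 48 h (log2 0.27, 0.25 and 0.32), and it was the 1 member that did so under those scalings. Retained-intron transcripts held 19.1% ± 5.0 (SD, n = 3) of POLE counts in wild type at 48 h and 26.0% ± 12.7 in knockdown, and on protein-coding transcripts alone the difference between times did not pass (adjusted p = 0.241).

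POLA1, the catalytic subunit of the polymerase that makes primers (chrX:24693919-24996986, plus strand), had 24.8 and 26.4 CPM against 18.4 and 19.4 CPM at 24 h, 42.9, 40.5 and 43.1 against 35.9, 33.2 and 42.6 CPM at 48 h and 21.6, 24.5 and 24.1 against 15.3, 13.7 and 12.9 CPM at 96 h. At 48 h knockdown replicate 3 lay among the wild-type libraries. Without it POLA1 passed as lower at 48 h (log2 -0.29, edgeR adjusted p = 0.00798). TK1, the salvage enzyme thymidine kinase (chr17:78174075-78187233, minus strand), had 369 and 363 against 274 and 297 CPM at 24 h, 567, 585 and 562 against 451, 516 and 576 CPM at 48 h and 289, 269 and 276 against 168, 196 and 179 CPM at 96 h. Again replicate 3 was the knockdown library among the wild-type values, and without it TK1 passed at 48 h (log2 -0.24, adjusted p = 0.0102). The difference between times had adjusted p = 0.0213 for POLA1 and 0.0332 for TK1. For POLA1 that call ended without wild-type replicate 2 of 48 h, or wild-type or knockdown replicate 2 or 3 of 96 h (0.0564 to 0.066). For TK1 it ended without any one of 10 of the 16 libraries (0.0558 to 0.0928): wild-type replicates 1 and 2 and knockdown-labelled replicate 2 of 24 h, all 3 wild-type libraries of 48 h, and replicates 1 and 3 of each group at 96 h.

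**Figure D2:**
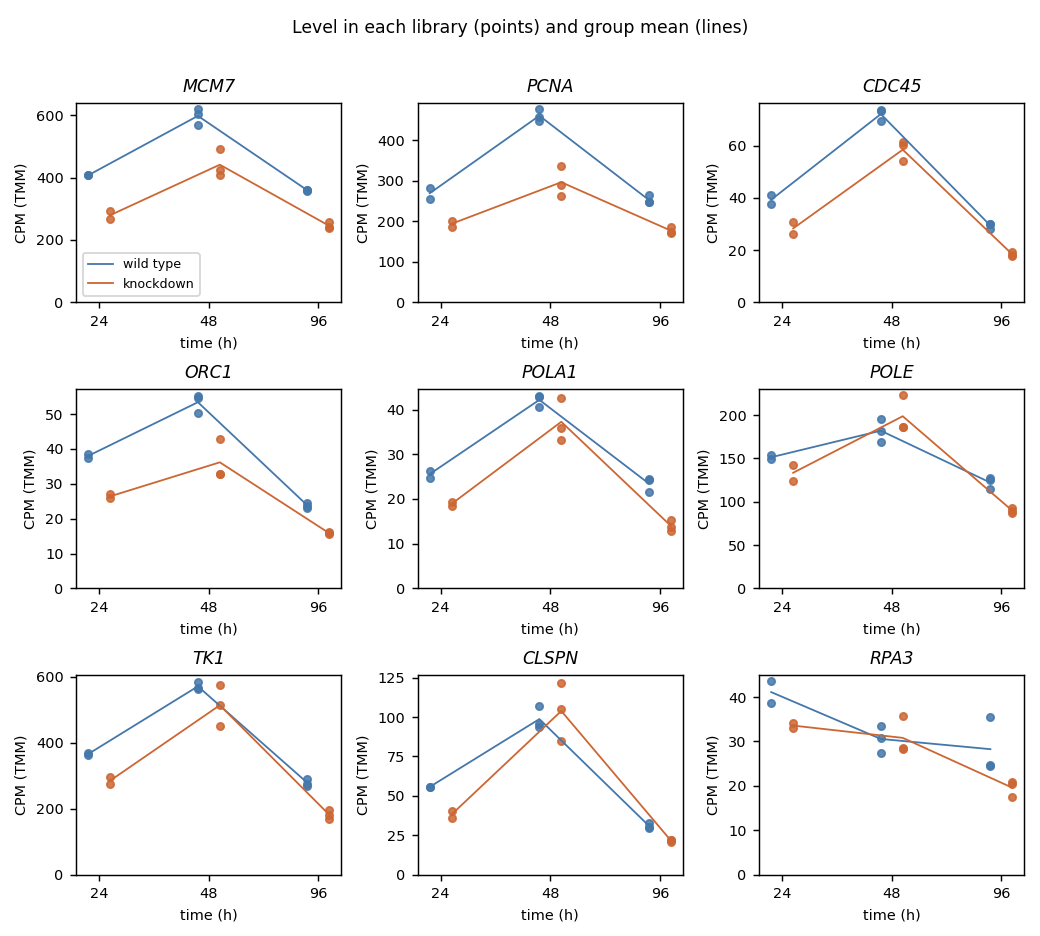
Level of 9 genes in each of the 16 libraries (points, CPM on TMM-scaled library sizes, axis from 0) by time, with lines through the group means, wild type in blue and knockdown in orange. MCM7, PCNA, CDC45 and ORC1 are lower in every knockdown library of each time, while POLA1, POLE, TK1, CLSPN and RPA3 overlap at 48 h.

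The counts at 24 h rest on 2 libraries a group and on the scaling. Under total-count scaling, which moved the median of all genes by 0.21 on the log2 scale at 24 h, 14 members were lower. Of all 19818 genes tested, 810 were lower and 2480 higher under that scaling, against 2463 and 1022 under TMM. Without any single library of 24 h fewer members were lower than in the full fit, and fewer of all genes were lower too. With a library of 24 h left out, 1 group holds a single library whose spread is assumed to be that of the other groups. With that limit, 14 members were called lower at 24 h whichever of the 16 libraries was left out, and 13 under all 3 other scalings. ORC1, MCM6, MCM7, MCM10, GINS2, POLD2, POLE3, RFC4 and TYMS were in both sets. Without wild-type replicate 1 of 24 h the 24 h calls of ORC3, CDT1, GINS1, GINS4, POLA2, POLD1, POLE2, RPA2, LIG1, TK1, TIMELESS and CHAF1B ended (adjusted p 0.0509 to 0.185). Those of ORC3, CDC6, CDT1, GMNN, MCM2, MCM4, GINS1, GINS4, POLA1, POLA2, PRIM1, POLD3, POLE2, PCNA, RFC1, RFC3, RPA1, FEN1, LIG1, RRM1, TK1, TIMELESS, TIPIN and WDHD1 ended without wild-type replicate 2 (adjusted p 0.0527 to 0.461). Leaving out knockdown-labelled replicate 1 of 24 h ended the calls of ORC3, ORC5, CDC6, CDT1, GMNN, MCM2, MCM4, MCM5, CDC45, GINS1, GINS4, POLA1, POLA2, POLD1, POLD3, POLE2, RFC1, RFC3, RPA1, RPA2, FEN1, LIG1, RRM1, TK1, CLSPN, TIMELESS, WDHD1 and CHAF1B (adjusted p 0.0528 to 0.277). Leaving out knockdown-labelled replicate 2 ended those of ORC3, CDT1, MCM2, MCM4, GINS1, GINS4, POLA1, POLA2, PRIM1, POLD3, RFC1, RPA1, RPA2, FEN1, LIG1, RRM1, TK1, TIMELESS, TIPIN, WDHD1 and CHAF1B (adjusted p 0.0564 to 0.299). TIMELESS also lost its call without any 1 of 9 libraries of the later times (0.0506 to 0.159), and ORC3, POLA2 and POLD3 without some of these. At 48 h 30 of the 40 calls held whichever library was left out. The other 10 (GINS1, GINS2, RFC5, LIG1, RRM2, CHAF1B, RPA1, DNA2, RRM1 and POLD3) each ended without at least 1 of the 6 libraries of 48 h (adjusted p 0.0512 to 0.185). At 96 h 37 of the 48 held, and the other 11 (ORC5, CDT1, POLD2, RPA1, ORC2, ORC3, RPA3, DNA2, POLA2, LIG1 and GINS3) each ended without at least 1 of the 6 libraries of 96 h (adjusted p 0.051 to 0.17). On protein-coding transcripts alone, 10 of the 45 calls at 24 h ended (ORC3, GINS1, DBF4, PRIM1, POLD3, POLE2, LIG1, RRM1, TIMELESS and WDHD1), 11 of the 40 at 48 h (ORC2, GINS1, GINS2, DBF4, PRIM1, POLD3, LIG1, DNA2, RRM1, RRM2 and CHAF1B) and 3 of the 48 at 96 h (ORC2, DBF4 and POLA2), with adjusted p from 0.0515 to 0.952. Such transcripts held under 50% of counts in wild type at 48 h for MCM7, DBF4, PRIM1 and PRIM2. The share of all genes whose calls held under these same rules was not counted.

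Replication gene RNA also differed between times in both genotypes, with larger medians than those of the knockdown. In wild type, 46 members were higher and 1 (RPA3) was lower at 48 h than at 24 h, with 22.5% of all genes higher and 22.1% lower. Then 52 members were lower at 96 h than at 48 h and 0 were higher (also 0 at an unadjusted p under 0.05 and 0 by DESeq2), with 22.7% of all genes lower and 23.7% higher. The members' median log2 changes were 0.55 and -0.82. In knockdown, 48 members were higher at 48 h than in the libraries labelled knockdown at 24 h (25.7% of all genes, with 21.3% lower), and 53 were lower at 96 h than at 48 h (26.3% of all genes, with 25.3% higher), with medians of 0.62 and -0.91. Without knockdown replicate 3 of 48 h, 47 members were higher (28.0% of all genes) and MCM5 was lower (24.1%) at 48 h than at 24 h in knockdown, and 52 were lower at 96 h than at 48 h (29.4% of all genes, with 28.3% higher). These calls are on TMM-scaled counts. The members' shares of all TPM overlapped in wild type, at 0.328% and 0.358% (24 h) and 0.345%, 0.368% and 0.336% (48 h). In knockdown they overlapped too, at 0.290% and 0.310% against 0.287%, 0.258% and 0.326%, so the TPM shares show no clear rise. At 96 h the shares were below all those of 48 h in both genotypes. Other measures of the libraries moved with time as well. In wild type, mitochondrially encoded RNA held 4.89% and 5.05% of counts at 24 h, 10.4% to 11.1% at 48 h and 15.5% to 16.6% at 96 h, library totals rose from at most 28582248 counts at 24 h to at least 43195627 at 96 h, and CD68 had 52.1 and 47.3 CPM at 24 h, 8.69 to 11 CPM at 48 h and 12.5 to 17.2 CPM at 96 h. Their part in the changes over time was not tested.

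From 24 h to 48 h in wild type the histone-fold gene POLE3 had the largest rise (log2 1.08 ± 0.09, SE), followed by POLE2 at 1.02 and CDC7 at 0.97. MCM5 and MCM6, unlike the 4 other MCM2-7 genes, did not pass (-0.07 and 0.11), and RPA3 fell by 0.43 on the log2 scale (edgeR adjusted p = 0.0267). From 48 h to 96 h the largest falls in wild type were those of CLSPN (log2 -1.68 ± 0.10), MCM10 (-1.36 ± 0.10), FEN1 (-1.32 ± 0.09) and CDC45 (-1.30 ± 0.08). In knockdown the fall of CLSPN was -2.27 ± 0.10, from values overlapping wild type to values below it. ORC4, RPA3 and PRIM2 did not pass from 48 h to 96 h in wild type.

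On the CPM scale, the highest wild-type mean was at 48 h for 52 of 55 members (35.6% of all genes tested). The highest knockdown mean was at 48 h for 53 (40.7%). MCM5 and RPA3 were outside both counts. All 3 knockdown libraries at 96 h lay below the 13 other libraries for 37 members (3.84% of all genes tested), and all 3 wild-type libraries at 48 h lay above the 13 others for 40 members (9.84%). On a per-length scale, the member levels in wild type at 48 h ran from 1.09 TPM (PRIM2) to 395 TPM (TK1), with a median of 32.1 TPM. Within roles they ran from 43.3 TPM (MCM6) to 231 TPM (MCM7) for the MCM2-7 genes, where MCM7 includes its retained-intron transcripts, and from 13.2 TPM (ORC2) to 38.3 TPM (ORC6) for the origin recognition complex, so genes of 1 complex differed in RNA level.

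**Figure D3:**
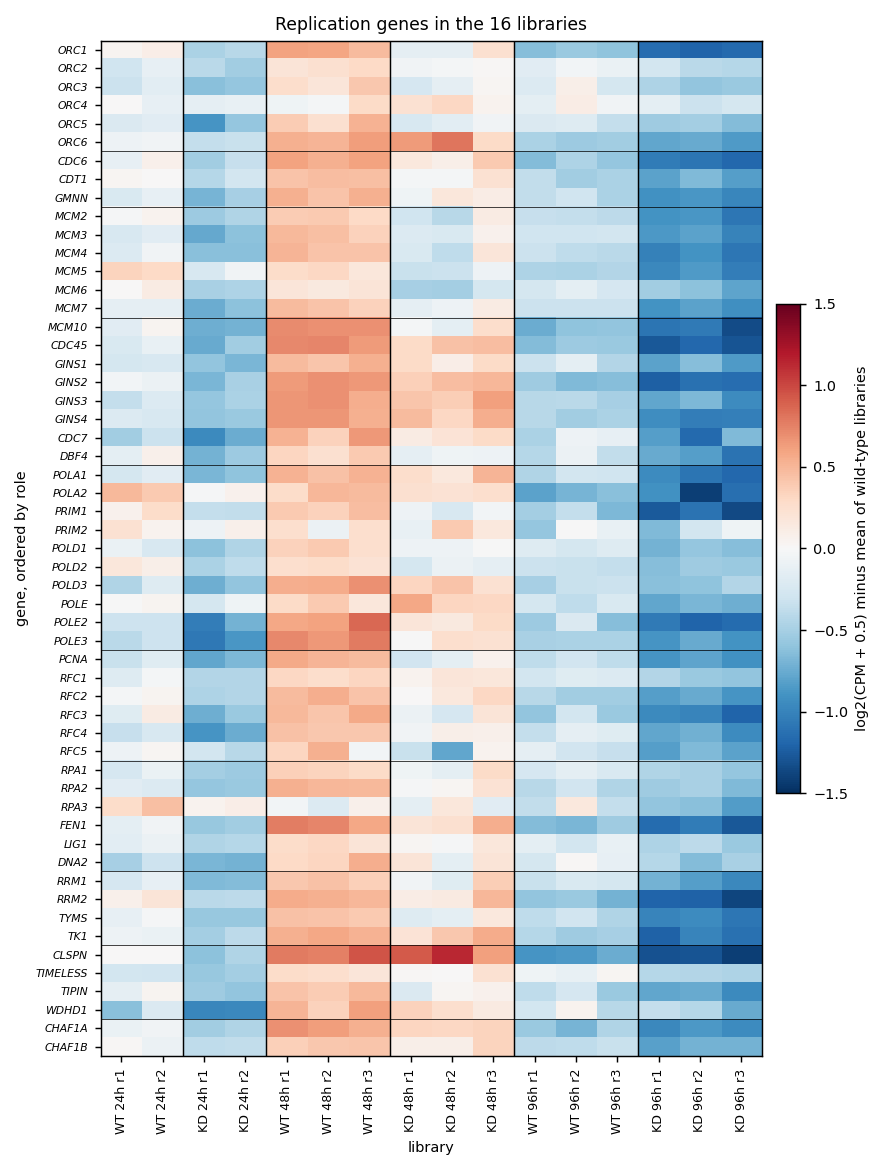
Level of the 55 genes (rows, ordered by role, with lines between roles) in the 16 libraries (columns, with lines between groups), as log2(CPM + 0.5) minus the mean of that gene over the wild-type libraries, red above and blue below. The wild-type columns at 48 h are the reddest and the knockdown columns at 96 h the bluest, and knockdown replicate 3 at 48 h is nearer to wild type than replicates 1 and 2 for most rows.

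Genes of the pathway outside the 55 were taken from 3 further lists. Of 27 other replisome and initiation genes tested, 15 were lower and 0 higher at 24 h (12.4% and 5.16% of all genes tested). At 48 h 11 were lower and 2 higher (18.5% and 14.8%), and at 96 h 18 lower and 1 higher (5.15% and 5.36%). DSCC1, a subunit of an alternative clamp loader, fell by 0.68, 0.59 and 0.64 on the log2 scale, and SSRP1, a subunit of the histone chaperone FACT, by 0.71, 0.32 and 0.45. TICRR, which helps load CDC45, fell by 0.49 at 24 h and 0.86 at 96 h but did not pass at 48 h (-0.16). POLD4, the smallest subunit of polymerase delta, was higher at 48 h and 96 h, where the listed subunits POLD1 and POLD2 were lower. It had 23.2, 21.3 and 21.8 CPM in wild type and 30.3, 38.4 and 32.9 CPM in knockdown at 48 h, and 46.1, 40.8 and 40.8 against 62.5, 75.3 and 67.8 CPM at 96 h. All knockdown libraries of POLD4 were above all wild-type ones at those times (log2 0.62 ± 0.10 and 0.69 ± 0.09, SE, edgeR adjusted p = 5.25e-05 and 3.75e-05), and over time in wild type its changes were opposite in sign to the members' medians (-2.09 from 24 h to 48 h and 0.95 from 48 h to 96 h). The other gene that was higher at 48 h was DBF4B (0.31), a relative of DBF4. At 48 h 14 of the 27 were lower and 4 higher (also RECQL4 and RNASEH2C) without knockdown replicate 3. Of all genes 23.9% were lower and 20.8% higher in that fit.

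Of 20 other nucleotide supply genes, 14 were lower and 2 higher at 24 h (12.4% and 5.16% of all genes tested). At 48 h 14 were lower and 0 higher (18.5% and 14.8%), and at 96 h 9 lower and 0 higher (5.15% and 5.36%). The 2 higher at 24 h were TK2 (0.28) and SAMHD1 (0.39), which hydrolyses deoxynucleotides. The named falls at 48 h were of genes of de novo purine and pyrimidine synthesis: PAICS (log2 -0.82 ± 0.10, SE), UMPS (-0.75 ± 0.08) and CAD (-0.63 ± 0.08). CTPS1, which makes CTP, fell by 0.62, 0.56 and 0.45 at the 3 times, and IMPDH2, of guanine nucleotide synthesis, by 0.57, 0.41 and 0.23. With knockdown replicate 3 of 48 h left out, 17 of the 20 were lower and 0 higher at 48 h (23.9% and 20.8% of all genes). Of 21 genes of S-phase control, 11 were lower and 0 higher at 24 h (12.4% and 5.16% of all genes tested). At 48 h 13 were lower and 2 higher (18.5% and 14.8%), and at 96 h 8 lower and 0 higher (5.15% and 5.36%). Cyclin A2 (CCNA2) fell by 0.61, 0.48 and 0.96 on the log2 scale, the phosphatase gene CDC25A by 0.46, 0.52 and 0.38, and the ubiquitin ligase gene SKP2 by 0.44, 0.57 and 0.46. CDKN1A, the p21 inhibitor of cyclin-dependent kinases, was higher in knockdown at 48 h (317, 314 and 381 CPM against 259, 259 and 244 CPM, log2 0.41 ± 0.08, edgeR adjusted p = 0.000466) and did not pass at 24 h (-0.06) or 96 h (0.16). CDKN1A lay at 0.31 without knockdown replicate 3 of 48 h (adjusted p = 0.000682). The list again had 13 lower and 2 higher in that fit (23.9% and 20.8% of all genes). RAD9A, a subunit of a checkpoint clamp, was the other gene higher at 48 h (0.33). Each count of 0 higher in these 3 lists was by edgeR and was also 0 at an unadjusted p under 0.05.

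Mitosis genes were set beside the replication genes, since both mark cycling cells. At 24 h, 21 of 25 mitosis genes were lower, with a median log2 fold change of -0.48 against -0.45 for the replication genes. Over all genes tested, 12.4% were lower at 24 h, 18.5% at 48 h and 5.15% at 96 h, and 14.8% were higher at 48 h. At 48 h, 13 of the mitosis genes were lower and 1 (CENPE, 0.35) was higher, with a median of -0.23 against -0.34. At 96 h all 25 mitosis genes were lower, with a median of -0.81 against -0.49. Values ran from -0.98 to -0.56 for mitosis genes and from -0.76 to -0.18 for replication genes. With knockdown replicate 3 of 48 h left out, 16 mitosis genes were lower and CENPE was higher (0.48) at 48 h. The medians were -0.32 against -0.41, and 23.9% of all genes were lower and 20.8% higher. The knockdown effect differed between times for 20 of the 25 mitosis genes and 4 of the 55 replication genes, and for 9.46% of all genes. Without knockdown replicate 3 of 48 h it did so for 24 and 8, and for 25.5% of all genes. For example CENPF, a kinetochore gene, lay at -0.41, -0.09 and -0.98 at the 3 times (edgeR adjusted p of the difference = 7.55e-05), while the replication gene MCM7 lay at -0.54, -0.44 and -0.55. The lists themselves were not tested against each other.

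**Figure D4:**
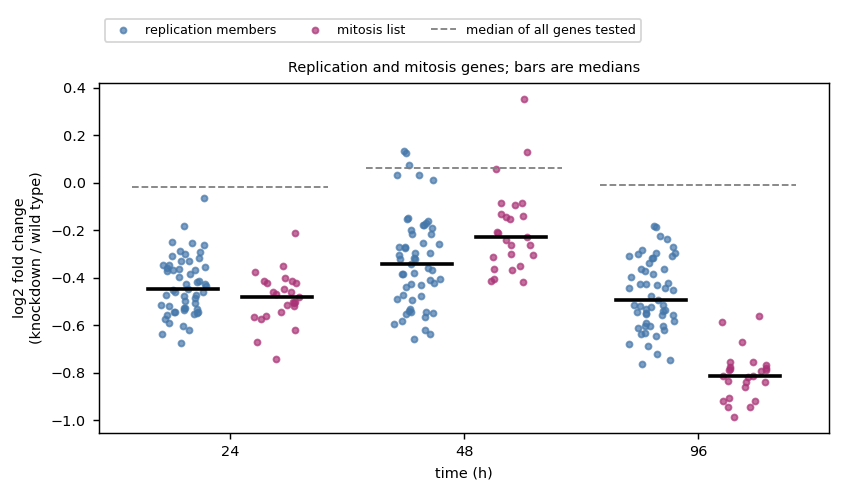
Log2 fold change of knockdown over wild type (y axis) for the 55 replication genes (blue) and the 25 mitosis genes (purple) at 24 h, 48 h and 96 h, with black bars at the list medians and dashed lines at the median of all genes tested. The medians lie close together at 24 h (-0.45 and -0.48) and apart at 96 h (-0.49 and -0.81).

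The stated purpose of the series included alternative splicing, so the use of transcripts within each member was compared. By edgeR's diffSpliceDGE with Simes p-values adjusted by Benjamini-Hochberg, 0 of 54 members tested passed at 24 h (1.64% of all genes tested), 2 at 48 h (4.33%) and 0 at 96 h (1.56%). At an unadjusted p under 0.05 the counts were 3, 8 and 5. Without knockdown replicate 3 of 48 h, 7 members passed at 48 h, TK1 and GINS4 among them (9.66% of all genes tested). On simulated counts diffSpliceDGE made more false calls than its threshold allows, so these calls are uncertain and a second test is given. By limma on log ratios of transcripts with at least 10% of their gene, 0 of 55 members passed at any time (0.471%, 0.291% and 0.0762% of all genes tested), with 5, 8 and 3 at an unadjusted p under 0.05.

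The 2 genes at 48 h were TK1 (edgeR adjusted p = 0.00777) and GINS4 (adjusted p = 0.00513). TK1-202, a short protein-coding transcript, held 7.95%, 9.34% and 2.47% of TK1 counts in wild type and 0.262%, 0.456% and 4.02% in knockdown at 48 h. The groups overlapped through replicate 3 of each, and TK1-201 held between 88.3% and 96.9% in all 6 libraries. The TK1 call ended in the fit of the 48 h libraries alone (adjusted p = 0.535) and without replicate 1 or 2 of either group of 48 h (0.0646 to 0.171). GINS4-209, a minor protein-coding transcript, was at 0 in all 3 wild-type libraries and held 6.29%, 1.42% and 3.34% in knockdown at 48 h, while GINS4-201 held 84.5% to 91.5% in wild type and 82.7% to 88.3% in knockdown. The GINS4 call ended without wild-type replicate 1 or 2 of 48 h (adjusted p = 0.0512 and 0.0531), and kallisto divides reads between transcripts by a model, so shares of minor transcripts are uncertain.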

How the data were processed

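PolyA RNA of HCT116 cells was sequenced in 16 libraries. Per the labels, the authors deposited 1 table of estimated counts (expected counts) per transcript, and kallisto, DESeq2 and hg19 stand in the submitters' processing notes with no version. Each of the 18 largest values (at least 7 digits) ends in 0, as after rounding. The sources used here do not give the index or options of kallisto. Of 166096 transcripts 156584 had their Ensembl identifier in GENCODE 29 (GRCh38) and were summed to its symbols. The other 9512 held 2.75% to 3.40% of a library's counts and were left out. Gene coordinates are those of GENCODE 29.

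The gene test was that of edgeR 4.0.16 (R 4.3.3): filterByExpr (19818 genes kept), TMM scaling, a mean per group over the 6 groups (10 residual degrees of freedom), robust glmQLFit and glmQLFTest, with Benjamini-Hochberg adjustment over all genes and a threshold of 0.05. The tests were checked on simulated counts, where the gene test kept to its threshold and diffSpliceDGE made too many false calls. For the gene test few genes were changed, in both directions. That check therefore cannot show whether the threshold holds under a shift like that between scalings at 24 h. TPM used annotated transcript lengths. At this depth the spread between libraries limits precision more than counting does, and no replicate pair was alike within sampling noise (chi-square per degree of freedom 7.84 to 56.1). Other settings were 3 scalings, DESeq2 1.42.0, no filter, a minimum fold of 1.2, protein-coding transcripts only, a replicate block, the libraries of 1 time only and leaving out each library. Transcript usage was also tested with limma 3.58.1.

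Library values are given for NORAD and, in each role, for the member with the lowest adjusted p in each knockdown contrast and in the test between times. Of each other list up to 3 genes with the lowest p in a contrast are named. CENPE, DBF4B, TK2, SAMHD1, RAD9A, RECQL4 and RNASEH2C were named after their values were seen, as genes of these lists that were higher, as were members given only by their fold changes. The members and lists were chosen with earlier results of these data known. UHRF1 and PECAM1, listed among other genes, were not among the symbols summed and are not used here.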

Additional observations from a re-analysis of the deposited data

Results flagged for a closer look

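For 14 of the genes named above and for CCNB1, 1 of the mitosis genes, the knockdown effect differed between the 3 times in edgeR's F test with Benjamini-Hochberg adjustment over all genes. For the target itself, NORAD, the adjusted p was 7.98e-10, with log2 fold changes of 0.14, -2.88 and -1.33 at 24 h, 48 h and 96 h. Among the 55 replication genes these were POLE (0.00962), CLSPN (0.0112), POLA1 (0.0213) and TK1 (0.0332), each with its lowest value outside 48 h.

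Among the other pathway genes, POLD4 (0.00147) lay at log2 -0.16, 0.62 and 0.69, TICRR (0.0016) at -0.49, -0.16 and -0.86, UMPS (0.0288) at -0.50, -0.75 and -0.29, and CDKN1A (0.0463) at -0.06, 0.41 and 0.16. DBF4B (0.00552) lay at -0.14, 0.31 and -0.58. Of the mitosis genes, CCNB1 (0.0145) lay at -0.67, -0.42 and -0.95, CENPE (0.000302) at -0.42, 0.35 and -0.92 and CENPF (7.55e-05) at -0.41, -0.09 and -0.98. Of the markers of other cells, CD68 (0.000335) lay at -0.41, 0.20 and 0.87 and COL1A1 (0.000362) at 0.31, 1.07 and 0.07. Of the 7 colon epithelial markers, not listed one by one here, 5 also differed between times (9.46% of all genes). At 48 h 5 of them were lower (18.5% of all genes), and the median of the 7 was -0.49. Of the replication genes, POLA1 and TK1 lost this call without single libraries (adjusted p up to 0.066 and 0.0928), and POLE and CLSPN kept it whichever library was left out. With 2 or 3 libraries a group, no test for an outlying value within a group was run.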

How the results depend on the processing

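Members called at 24 h, 48 h and 96 h numbered 45, 40 and 48. Total-count scaling gave 14 at 24 h. A minimum fold of 1.2 gave 10, 17 and 22, with 662, 1348 and 245 of all 19818 genes lower. Leaving out 1 library gave 32 to 47 at 48 h and 39 to 51 at 96 h, and fewer at 24 h without any 1 library of that time. For the difference between times the count of 4 became 9 under total-count and upper-quartile scaling, 11 under abundance-dependent scaling, 7 on protein-coding transcripts and 2 to 8 with 1 library left out. The fit with replicate number as a block gave 39, 35 and 44 members, and 1 for the difference between times. In that fit 1869, 3134 and 722 of all 19818 genes were lower and 716, 2102 and 718 higher. With 1 library left out, 2722 to 4733 of all genes were lower at 48 h and 587 to 1507 at 96 h. For the difference between times, shares of all genes are given only for the main fit (9.46%) and without knockdown replicate 3 of 48 h (25.5%). Same-numbered deviations from the group means had correlations of -0.26 to 0.06. With means of 2 or 3 libraries these cannot show whether libraries of the same number were paired. The 4 comparisons of times could not be fitted with that block, and without it changed by less than 1.5 times in every setting run. With 1 library left out they gave 42 to 47, 51 to 52, 45 to 48 and 52 to 54. Members with changed usage at 48 h numbered 2, then 0 by limma or among transcripts with at least 10% of their gene, 1 with the block or with the 48 h libraries alone, and 0 to 7 with 1 library left out. At 24 h and 96 h usage gave 0 to 1 with 1 library left out, and 1 at 96 h with the libraries of that time alone. A minimum fold was not run for the F test.

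Total-count scaling moved the median of all genes by 0.21 at 24 h and 0.14 at 48 h, and upper-quartile scaling by 0.12 at both. Of all genes called at 24 h, 1022 were higher and 2463 lower under TMM, 2480 and 810 under total-count, 1730 and 1485 under upper-quartile and 1342 and 1389 under abundance-dependent scaling, and at 48 h 2930 and 3659, 4732 and 2138, 4443 and 2480, and 2770 and 2810. Signs turned at 24 h for ORC4 (0.15, 0.052 and 0.013 under the 3 scalings, 0.028 on protein-coding transcripts), POLE (0.030 total-count, 0.020 abundance-dependent) and DBF4 (0.090 on protein-coding transcripts). They turned at 48 h under abundance-dependent scaling for PRIM2 (-0.42), TK1 (0.066) and TIMELESS (0.012), without a filter for RPA3 (-0.013), and on protein-coding transcripts for ORC6 (-0.19) and DBF4 (0.58). With 1 library left out, ORC4 at 24 h ran from -0.13 to 0.0055, and at 48 h CLSPN ran from -0.0542 to 0.20, ORC6 from -0.081 to 0.16, PRIM2 from -0.25 to 0.26 and RPA3 from -0.11 to 0.084, and PRIM2 at 96 h from -0.79 to 0.13. Of these DBF4 at 24 h and 48 h had passed, and CLSPN without knockdown replicate 3 of 48 h came to pass. The causes were not tested.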
